A study of Danio rerio with 18 samples.

Results

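The sites described here are the 5-methylcytosine (m5C) positions called in polyadenylated zebrafish RNA at 16, 24 and 48 hours post fertilisation (hpf). They are all sites in the lists of these stages, matched to the lists of 0 to 10 hpf by chromosome, position and strand. There were 44 such sites in 42 genes, of 9047 distinct sites in the 9 stages profiled, and 9021 sites were listed at 0 to 10 hpf. Polyadenylated RNA was taken from pooled wild-type AB fish, with 2 libraries per stage and 18 in all, 6 of them from the late stages. The fish were embryos or larvae of 48, 24 or 16 hpf, set against embryos of 10 hpf and earlier. RNA was treated with bisulfite and sequenced, and the study followed m5C in mRNA through early development. Each list combines both libraries of a stage, so the values below carry no spread between replicates, and a comparison of 2 stages compares pooled libraries. A stage was a pool of whole animals, so a lower level in every cell and a different mix of cells cannot be told apart.

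Bisulfite converts unmethylated cytosine to a base that is read as T, whereas m5C is protected and stays a C in the reads. Level, here and below, means the methylation level, which is the share of C in all C or T reads of a position, and coverage means the number of those reads. In animals m5C is placed on mRNA mainly by the methyltransferases NSUN2 and NSUN6. The egg supplies the embryo with maternal mRNA, which is cleared during the maternal-to-zygotic transition while the embryo starts to transcribe its own genome. RNA read at 16 hpf and later is therefore largely made by the embryo itself.

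The late lists were short, and 26 of their 44 sites had not been listed at an earlier stage. The 16 hpf list held 21 sites, the 24 hpf list 14 sites, and the 48 hpf list 25 sites in 23 genes, 60 listings in all. The new sites lay in 25 genes, and the 18 sites also in a list of 0 to 10 hpf lay in 17 genes. At 16 hpf 42.9% of the sites had been listed before (Wilson 95% interval 24.5% to 63.5%). At 24 hpf the share was 35.7% (16.3% to 61.2%), and at 48 hpf it was 52% (33.5% to 70.0%), so the intervals overlap. Few sites recurred among the late stages, as 32 sites were in 1 late list, 8 in 2 and 4 in all 3. The sites in all 3 were those of gnb2l1, gpx1a, msrb1a and the mitochondrial gene AC024175.17. At 48 hpf 15 sites were in no other late list, 7 of them listed before 16 hpf, and 4 of those 7 were in the 10 hpf list.

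**Figure D1:**
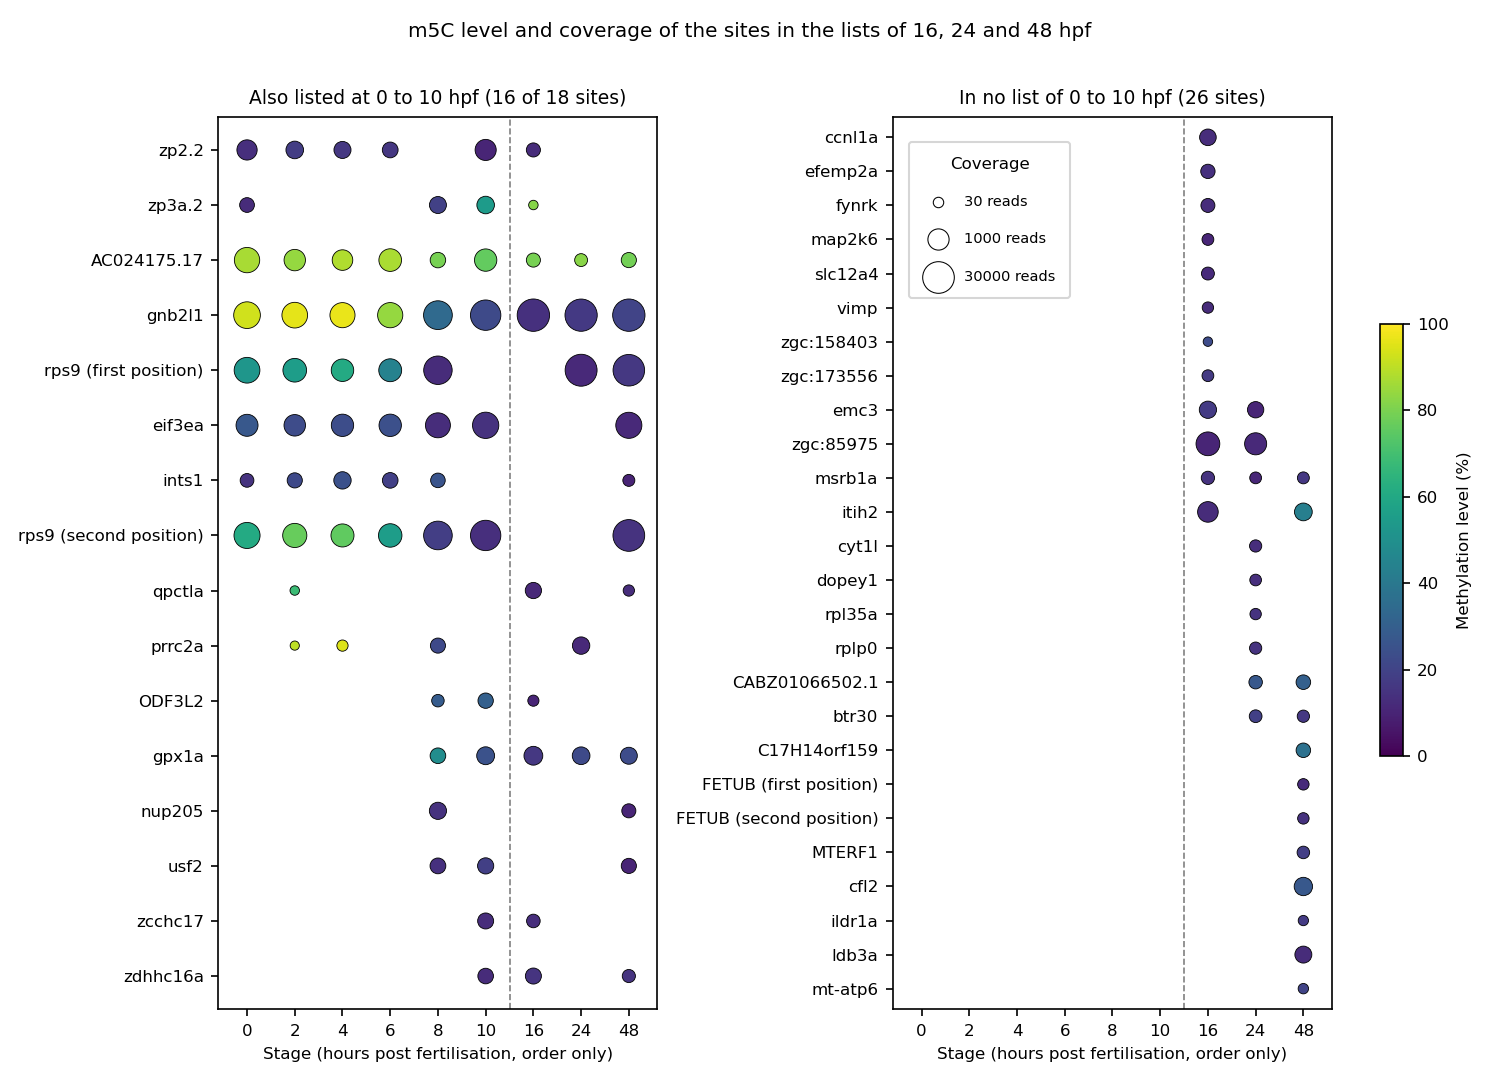
Each row is a late site and each column a stage (hpf, in order but not to scale), with colour for the methylation level in percent and dot area growing with coverage. The left panel has 16 of the 18 sites also listed at 0 to 10 hpf and the right panel the 26 new sites, and an empty cell means that the site was not in that list.

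Seen from the early stages, almost no site was found again. Of the 428 sites of the 10 hpf list 12 were in a late list, which is 2.80% of that list and 27.3% of the late sites. The 8 hpf list gave 14 sites (1.12% of it, 31.8% of the late sites) and the 4 hpf list, with 5889 sites, gave 10 (0.170% of it, 22.7% of the late sites). Among the 18 sites listed before, 10 dated from 0 hpf and 2 from 2 hpf, whereas 4 appeared first at 8 hpf and 2 at 10 hpf. Only 5 of the 18 were listed at every stage between their first and last listing, and 13 had a gap. A site that is missing from a list may be below 10% or below 20 reads, may have failed another filter or may be unmethylated, and the lists do not separate these cases.

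Late levels were mostly close to the minimum of 10%. In order of stage the median level was 13.1%, 14.0% and 16.1%, and the median coverage was 98, 74 and 116 reads. Levels near the minimum were also common just before, with medians of 16.5% at 8 hpf and 16.7% at 10 hpf, on 97 and 98 reads. Levels under 15% were found at 185 of 428 sites at 10 hpf. In the late lists they were found at 15 of 21, 9 of 14 and 11 of 25 sites. The 27 listings of sites known from before had a median level of 14.0% and a median coverage of 187 reads, with 10 listings under 100 reads. The 33 listings of new sites had a median level of 14.5% and a median coverage of 64 reads, with 21 under 100 reads. The medians of level were thus close, but new sites stood on fewer reads, at most 2325 against 38499. Intervals below are Wilson 95% intervals on the reads. They cover counting error only, since PCR copies could not be removed by molecular identifiers.

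**Figure D2:**
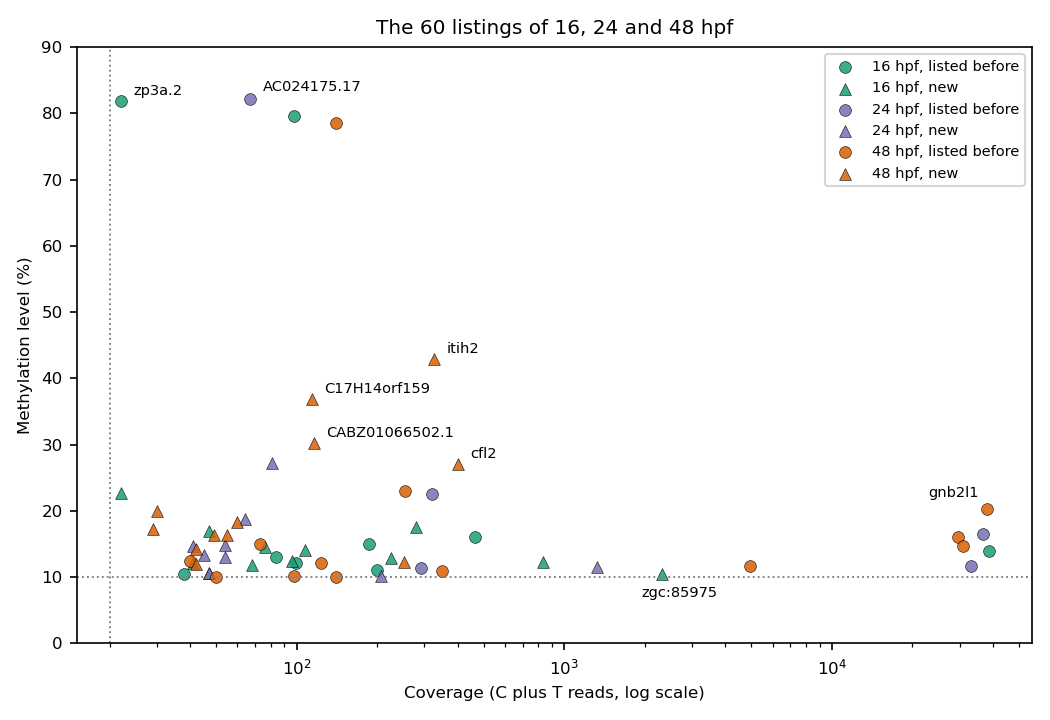
Methylation level (percent) against coverage (C plus T reads, log axis) for the 60 late listings, with circles for sites listed before and triangles for new sites, coloured by stage. Dotted lines mark the minimum level of 10% and the minimum coverage of 20 reads, and the 4 listings above 50% belong to AC024175.17 and zp3a.2.

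The deepest late sites lay in genes of the translation machinery. Position 6916231 of chromosome 14, plus strand, lies in gnb2l1 (ENSDARG00000041619), whose product RACK1 is a scaffold on the small ribosomal subunit. At 16 hpf its level was 14.0% (13.6% to 14.3%) on 38499 reads. At 24 hpf it was 16.5% (16.2% to 16.9%) on 36797 reads, and at 48 hpf it was 20.3% (19.9% to 20.7%) on 37819 reads. The intervals of these stages do not overlap, and each later stage was higher than the one before. At 10 hpf the level had been 22.6%, and at 4 hpf 96.7%. C reads over the site numbered 7665 at 48 hpf, against 3444 at 4 hpf, whereas T reads numbered 30154 at 48 hpf, against 119 at 4 hpf. Both kinds of read were thus more numerous at 48 hpf than at 4 hpf, the T reads by far the more so, although reads are not scaled to the depth of the libraries. The gene supplied a large share of the C reads of listed sites late, with 87.9% at 16 hpf, 58.8% at 24 hpf and 42.1% at 48 hpf. At 10 hpf the share was 8.74% and at 4 hpf 0.447%. The late lists held 21, 14 and 25 sites, against 428 at 10 hpf and 5889 at 4 hpf, so the share also depends on how many other sites were listed.

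The gene rps9 (ENSDARG00000011405), which encodes a protein of the small ribosomal subunit, had a pair of neighbouring late sites on chromosome 16, plus strand. At position 34146365 the level was 12.3% at 8 hpf (10669 reads), the site was not in the lists of 10 and 16 hpf, and it came back at 24 hpf with 11.6% (11.3% to 12.0%) on 33187 reads. At 48 hpf it had 16.1% (15.7% to 16.5%) on 29498 reads. At position 34146366 the level was 13.4% at 10 hpf (19838 reads), and the only late listing was 14.7% at 48 hpf (14.3% to 15.1%, 31015 reads). At 48 hpf the first position had the higher level, and the intervals of the pair do not overlap, whereas at 4 hpf the first had 60.9% and the second 75.4%. Neighbouring positions can be covered by the same reads, which separate intervals ignore, and the difference between the positions was not tested. The late site of eif3ea (ENSDARG00000090697, chromosome 16, position 41291574, minus strand), a subunit of the translation initiation factor eIF3, had 11.7% at 48 hpf (10.8% to 12.6%, 4928 reads), against 14.3% on 5283 reads at 10 hpf, while at 4 hpf it had 23.3% on 1447 reads. Of these 3 genes, only eif3ea had levels below 50% at 0 to 4 hpf.

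**Figure D3:**
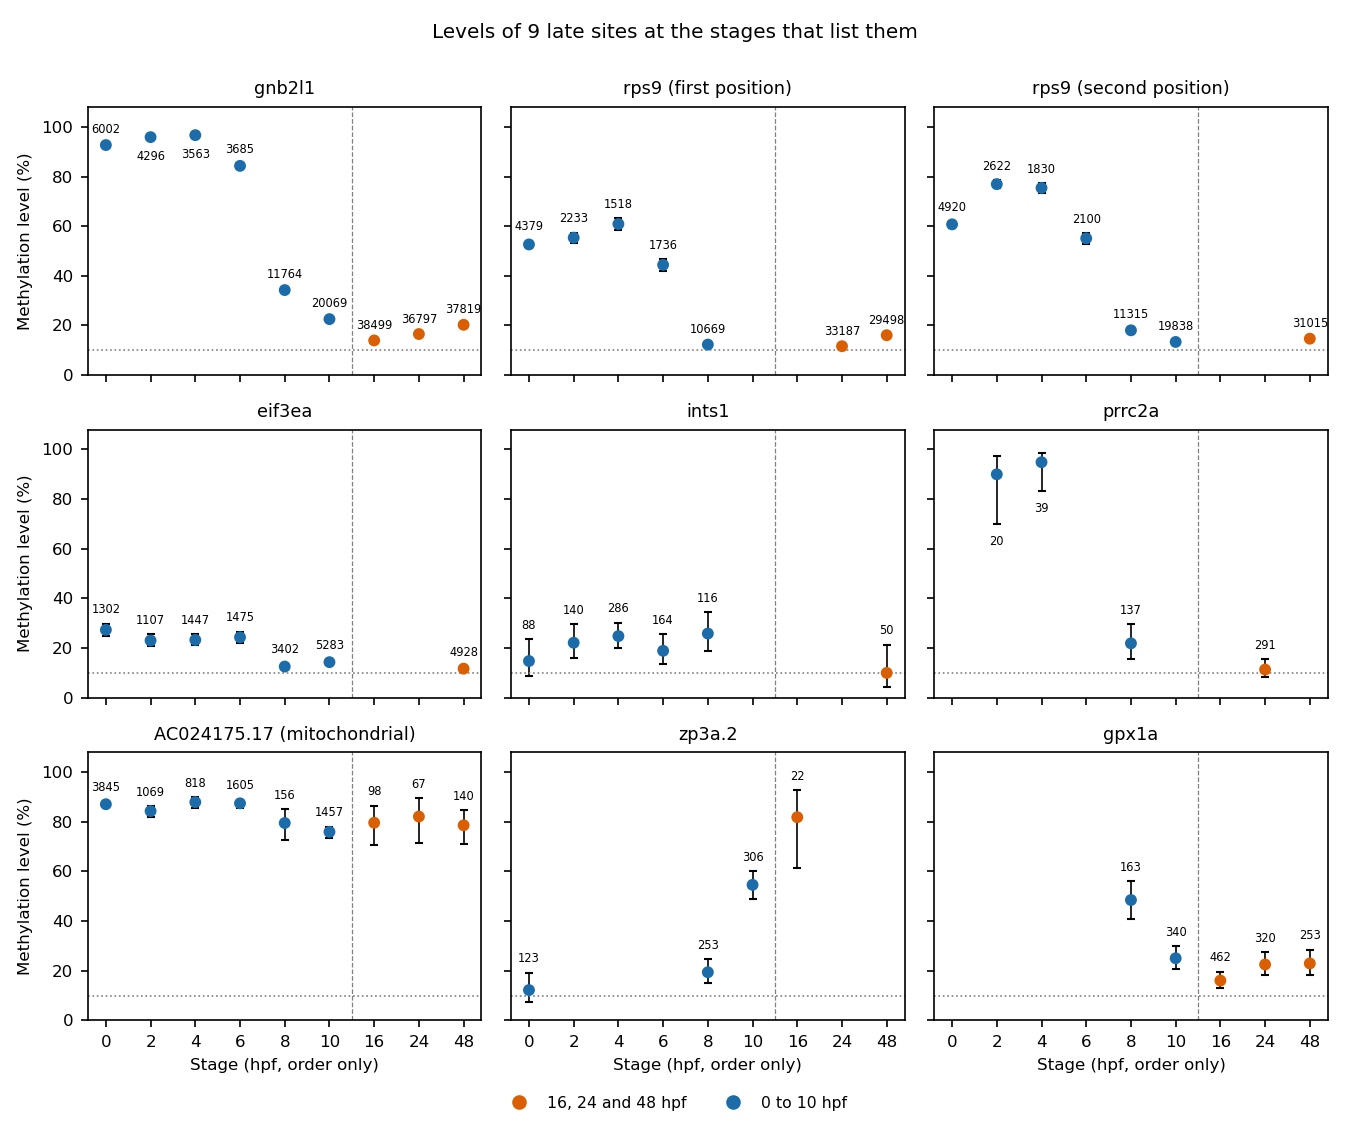
Methylation level (percent) of 9 late sites at the stages that list them (hpf, in order but not to scale), with Wilson 95% intervals as bars, coverage in reads as numbers and the minimum level of 10% as a dotted line. Late stages are orange and earlier ones blue. The gnb2l1, rps9, eif3ea, ints1 and prrc2a sites stand near or below 20% at the late stages, whereas AC024175.17 and zp3a.2 stand near 80%.

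New sites were found in 2 further ribosomal protein genes, both of the large subunit and both at 24 hpf only. The rplp0 site (ENSDARG00000051783, chromosome 5, position 2072826, minus strand) had 14.8% (7.70% to 26.6%, 54 reads). The rpl35a site (ENSDARG00000088030, chromosome 18, position 44195348, plus strand) had 14.6% (6.88% to 28.4%, 41 reads). Another rpl35a site, 5563 nt away, had been listed at 0 to 4 hpf with 21.8% to 37.7%. The rplp0 and rpl35a sites stood on far fewer reads than rps9, and their wide intervals include its level of 24 hpf.

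Selenoproteins, which carry selenocysteine and mostly act in redox reactions, were the second group with several late members. The gpx1a site (ENSDARG00000018146, chromosome 11, position 36889791, minus strand) lies in a gene of a glutathione peroxidase that reduces peroxides. From 8 to 48 hpf its level was 48.5%, 25%, 16.0%, 22.5% and 22.9%, on 163, 340, 462, 320 and 253 reads. The intervals of the late values were 13.0% to 19.6% at 16 hpf, 18.3% to 27.4% at 24 hpf and 18.2% to 28.5% at 48 hpf. It was in every list from 8 hpf on and in none before, with its lowest level at 16 hpf. The msrb1a site (ENSDARG00000025436, chromosome 3, position 18621243, minus strand), in a gene of a methionine sulfoxide reductase, was the only new site in all 3 late lists, with 14.5% of 76 reads, 10.6% of 47 and 16.3% of 49 in order of stage. The vimp gene (ENSDARG00000070097, selenos in current naming) encodes selenoprotein S of the endoplasmic reticulum, and its new site (chromosome 7, position 10101486, plus strand) had 12.2% of 41 reads at 16 hpf (5.32% to 25.5%). An earlier vimp site 12082 nt away had 29.2% of 514 reads at 4 hpf and was listed last at 6 hpf, with 15.3% of 150 reads. A nearer one, 1291 nt away, was listed at 4 hpf only, with 11.6% of 397 reads.

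Sites in prrc2a, qpctla and ints1 were also found late near the minimum, with less coverage behind their early levels. The prrc2a site (ENSDARG00000031494, chromosome 19, position 27229318, minus strand), in a gene of a large proline-rich coiled-coil protein, had 11.3% at 24 hpf (8.19% to 15.5%, 291 reads), against 21.9% on 137 reads at 8 hpf, while at 4 hpf it had 94.9% on 39 reads. The qpctla site (ENSDARG00000061691, chromosome 18, position 35566875, plus strand), in a gene like that of the enzyme that cyclises N-terminal glutamine, had 11.0% (7.38% to 16.1%) on 200 reads at 16 hpf and then 12.5% (5.46% to 26.1%) on 40 reads at 48 hpf, and its single earlier listing was 68.2% on 22 reads at 2 hpf. The ints1 site (ENSDARG00000059631, chromosome 3, position 43612539, minus strand), in a gene of a subunit of the Integrator complex that processes small nuclear RNAs, had 10.0% of 50 reads at 48 hpf (4.35% to 21.4%), and 14.8% to 25.9% at 0 to 8 hpf. With 5 C reads the late ints1 value stood exactly on the minimum level.

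Across the 18 sites listed before, the highest late level was below the highest early level at 15 and above it at 3. The early maximum was taken over up to 6 lists and the late one over at most 3. These counts therefore lean towards a lower late level and were not tested. Of the 9 sites with an early level of at least 50%, 7 had late levels under 50%, at most 20.3%. Among these 7 were the sites of gnb2l1, rps9 (both positions), prrc2a and qpctla. The 3 sites above their early maximum were those of zdhhc16a, zcchc17 and zp3a.2. Levels under 10% are in no list, so the late levels of sites that were not found again are not part of these counts.

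The remaining sites listed before were first seen at 8 or 10 hpf, apart from those of the egg coat and mitochondrial genes. The zdhhc16a site (ENSDARG00000007808, chromosome 13, position 31603824, minus strand), in a gene of a protein palmitoyltransferase, had 15.0% (10.6% to 20.8%) on 187 reads at 16 hpf and later 15.1% (8.63% to 25.0%) on 73 reads at 48 hpf, while at 10 hpf it had 12.4% on 161 reads. The zcchc17 site (ENSDARG00000018936, chromosome 19, position 44600271, minus strand), in a gene of a zinc finger protein, had 13.1% of 84 reads at 16 hpf (7.47% to 21.9%), against 12.5% of 184 reads at 10 hpf. In both genes the level of 10 hpf lies within the late intervals. The ODF3L2 site (ENSDARG00000014209, chromosome 2, position 42034873, plus strand), in a gene related to a protein of the sperm tail fibres in mammals, had 10.5% of 38 reads at 16 hpf (4.17% to 24.1%), against 30.2% of 149 reads at 10 hpf.

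Close neighbours were listed at the same early stages for some of them. The usf2 gene (ENSDARG00000020228) encodes a transcription factor that binds E-boxes, and its late site (chromosome 19, position 11198196, plus strand) had 10.0% of 140 reads at 48 hpf (6.05% to 16.1%), against 18.4% of 196 reads at 10 hpf. Position 11198197 next to it had 17.4% of 201 reads at 10 hpf and was in no late list. In zcchc17 the positions 1 and 2 nt from the late site were listed at 10 hpf with 15.1% and 11.9%, and neither was listed late. The nup205 site (ENSDARG00000042530, chromosome 18, position 11708580, minus strand), in a gene of the inner ring of the nuclear pore, had 10.2% of 98 reads at 48 hpf (5.64% to 17.8%), against 14.4% of 270 reads at 8 hpf, and none of 5 other early sites in this gene was found again.

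Egg coat genes gave 2 late sites, both at 16 hpf and neither later. In zp3a.2 (ENSDARG00000042130) the site at 34012893 of chromosome 20, plus strand, was listed 4 times, at 0, 8, 10 and 16 hpf. Its levels at these stages were 12.2%, 19.4%, 54.6% and 81.8%, on 123, 253, 306 and 22 reads, with an interval of 61.5% to 92.7% for the last. Its level was higher at each later listing, and it rested on 22 reads at 16 hpf, 2 above the minimum coverage. The other zp3a.2 site, 446 nt away, stayed between 11.0% and 14.4% at 0 to 10 hpf. In zp2.2 (ENSDARG00000091737) the site at 54549689 of the same chromosome and strand had 12.1% (7.07% to 20.0%) on 99 reads at 16 hpf, against 10.3% on 974 reads at 10 hpf. Egg coat genes have close copies in the genome, so reads may not be assigned to 1 gene with certainty.

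The mitochondrial site kept a high level at every stage. It lay at position 1862 of the mitochondrial chromosome, plus strand, in AC024175.17 (ENSDARG00000082753). The type of this RNA is not given in the sources used here, so whether it is an mRNA was not settled. At 16 hpf 79.6% of its 98 reads were C (70.6% to 86.4%), at 24 hpf 82.1% of 67 (71.3% to 89.4%) and at 48 hpf 78.6% of 140 (71.1% to 84.6%). At 10 hpf the level had been 75.9% on 1457 reads, while at 4 hpf it had been 87.9% on 818. A position 2 nt away was listed at 2 and 4 hpf only, with 13.5% and 11.1%. A second mitochondrial site was new at 48 hpf, at position 9296, plus strand, in mt-atp6 (ENSDARG00000063911), which encodes a subunit of the ATP synthase, with 20.0% of 30 reads (9.51% to 37.3%). All other late sites lay on numbered chromosomes.

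Among the 26 new sites, the 4 sites with the highest levels had them at 48 hpf, in itih2, C17H14orf159, CABZ01066502.1 and cfl2. The itih2 site (ENSDARG00000045516, chromosome 4, position 24282801, minus strand), in a gene of an inter-alpha-trypsin inhibitor heavy chain, a plasma protein made by the liver in mammals, had 42.9% at 48 hpf (37.7% to 48.4%, 326 reads), against 12.3% at 16 hpf (10.2% to 14.7%, 829 reads). It had the highest level of any new site, it was not in the 24 hpf list, and an early itih2 site 116 nt away had 17.5% of 40 reads at 2 hpf. The site in C17H14orf159 (ENSDARG00000005179, DGLUCY in current naming, chromosome 17, position 38935952, minus strand), the gene of a mitochondrial D-glutamate cyclase, had 36.8% at 48 hpf (28.6% to 46.0%, 114 reads). The site in CABZ01066502.1 (ENSDARG00000042010, PKLR in current naming, chromosome 16, position 57899223, minus strand), a gene of a pyruvate kinase found in liver and red cells in mammals, had 30.2% (22.6% to 39.1%) on 116 reads at 48 hpf, against 27.2% (18.7% to 37.7%) on 81 reads at 24 hpf. The gene listed as FETUB (ENSDARG00000070918, chromosome 22) has another, not descriptive, name in current naming, so no mammalian counterpart is given for it. Its pair of neighbouring new sites at 48 hpf, plus strand, had lower levels. These were 11.9% at position 41199062 and 14.3% at 41199063, each on 42 reads.

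Other new sites of 48 hpf lay in cfl2 and ldb3a, neither of which is in the list of contractile protein genes counted below. The cfl2 site (ENSDARG00000014106, chromosome 17, position 9872049, minus strand), in the gene of the cofilin that is the muscle form in mammals, had 27.1% (22.9% to 31.6%, 399 reads). The ldb3a site (ENSDARG00000056322, chromosome 13, position 22689800, plus strand), in a gene of a protein of the Z-disc, had 12.3% (8.80% to 16.9%, 252 reads). Neither gene had a listed site at 0 to 10 hpf, and their intervals do not overlap each other.

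At 16 and 24 hpf new sites lay in genes of membrane proteins of the endoplasmic reticulum, among them the new site with the most reads. The site in zgc:85975 (ENSDARG00000032405, ckap4 in current naming, chromosome 4, position 62059713, minus strand) had 10.5% of 2325 reads at 16 hpf (9.31% to 11.8%) and 11.6% of 1329 reads at 24 hpf (9.98% to 13.4%). The emc3 site (ENSDARG00000020607, chromosome 6, position 42301874, minus strand), in a gene of the complex that inserts proteins into this membrane, had 10.2% of 206 reads at 24 hpf (6.76% to 15.1%), against 17.6% of 279 reads at 16 hpf (13.5% to 22.5%). Neither was listed at 48 hpf or before 16 hpf.

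Other new sites with at least 100 reads or at least 20% were found at 16 hpf. The ccnl1a site (ENSDARG00000055124, chromosome 18, position 39855217, plus strand), in a gene of a cyclin L that takes part in mRNA splicing in mammals, had 12.9% of 225 reads. The efemp2a site (ENSDARG00000094324, chromosome 14, position 31539681, minus strand), in a gene of a fibulin of the extracellular matrix, had 14.0% of 107 reads. The site in zgc:158403 (ENSDARG00000062757, chromosome 3, position 14246776, plus strand) had 22.7% on 22 reads (10.1% to 43.4%), which is 5 C reads, and another site of this gene, 45055 nt away, had been listed at 0 and 8 hpf. Neither ccnl1a nor efemp2a had a listed site at 0 to 10 hpf.

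The remaining 15 new sites had levels between 10.6% and 18.8% on 29 to 96 reads. Besides rplp0, rpl35a, msrb1a, vimp and the FETUB pair, 5 of their genes belonged to signalling, transport and membrane traffic or to immunoglobulin-like receptors. The site in fynrk (ENSDARG00000027807, FRK in current naming, chromosome 20, position 466772, minus strand), a kinase of the Src family, had 12.5% of 96 reads at 16 hpf. The site in map2k6 (ENSDARG00000005567, chromosome 12, position 37501648, minus strand), which activates the p38 kinases, had 10.6% of 47 reads at 16 hpf. The site in slc12a4 (ENSDARG00000014378, chromosome 7, position 36738455, minus strand), a cotransporter of potassium and chloride, had 11.8% of 68 reads at 16 hpf. All 3 were listed at 16 hpf only, and only map2k6 had another early site, 11464 nt away.

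In dopey1 (ENSDARG00000019962, DOP1A in current naming, chromosome 16, position 35393617, minus strand), which acts in membrane traffic, the level was 13.3% of 45 reads at 24 hpf. In ildr1a (ENSDARG00000090704, chromosome 1, position 567430, plus strand), which encodes an immunoglobulin-like receptor, the level was 17.2% of 29 reads at 48 hpf. An early ildr1a site, with 11.6% of 284 reads at 0 hpf, lay 38 nt away and was the only early site within 100 nt of a new one, while no new site had one within 10 nt.

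The last 4 were in a keratin gene, a mitochondrial factor, a gene of a large family and a gene without a descriptive name. The cyt1l site (ENSDARG00000036832, chromosome 19, position 5982635, minus strand), in a keratin gene, had 13.0% of 54 reads at 24 hpf. The MTERF1 site (ENSDARG00000086107, chromosome 19, position 444373, minus strand), in a gene of a mitochondrial transcription termination factor, had 18.3% of 60 reads at 48 hpf. The btr30 site (ENSDARG00000090028, chromosome 19, position 49831449, minus strand), in a gene of the TRIM family, had 16.4% on 55 reads at 48 hpf, against 18.8% on 64 reads at 24 hpf. The zgc:173556 site (ENSDARG00000090768, position 2355474 of chromosome 17, minus strand) had 17.0% on 47 reads at 16 hpf, and 4 other sites of this gene had been listed between 2 and 10 hpf, the nearest 282 nt away. In all, 7 new sites lay in genes that had another site at 0 to 10 hpf, and 19 lay in 18 genes without one.

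Levels were then compared between stages for every site listed at both, by Fisher's exact test, two-sided, with the pooled C reads and T reads as counts. P-values were adjusted by the Benjamini-Hochberg method within each comparison, and the threshold was 0.05. There were 9 comparisons and 54 site tests on 23 sites, with 26 calls. Comparisons with 10 hpf share the 10 hpf list, and those with 4 hpf share the 4 hpf list, so they are not independent. All sites that could be tested are late sites, so the share of sites called in a comparison is given with each count and says nothing beyond it. Fisher's test takes reads as independent and calls differences of a few points at very deep sites. A beta-binomial z test, which adds a spread estimated from the 2 and 4 hpf lists, gave 18 calls. That spread comes from differences between these stages, so it may hold real change and is not a spread between replicates.

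Against 4 hpf the late levels were lower wherever they were called. At 48 hpf 8 sites were tested and all 8 were lower (100% of those tested), as were 3 of 4 at 24 hpf (75%) and 2 of 3 at 16 hpf (66.7%). At 48 hpf the gnb2l1 site differed from 4 hpf by -76.4 points (interval of the difference -77.1 to -75.6). The rps9 sites differed by -44.8 and -60.7 points, and eif3ea by -11.6 points (Fisher's exact test, adjusted p 7.98e-26). The calls nearest to the threshold were those of ints1, with -14.8 points (interval -22.6 to -2.55, adjusted p 0.0265, Fisher's exact test), and of the mitochondrial site, with -9.33 points (-17.1 to -2.87, adjusted p 0.00528, same exact test). All 8 were also called by the beta-binomial test. At 24 hpf prrc2a differed from 4 hpf by -83.5 points. At 16 hpf the mitochondrial site was lower by Fisher's exact test (-8.31 points, adjusted p of 0.0389) and not by the beta-binomial test (adjusted p of 0.0766), and zp2.2 was not called, with -4.09 points (-11.2 to 4.74).

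Against 10 hpf the differences of the sites that stayed listed were mostly smaller and went both ways. Of the 428 sites of 10 hpf only 12 were in a late list. Sites that fell below 10% could not be tested, so these differences do not describe the 10 hpf list as a whole. At 16 hpf 8 sites were tested, of which 1 was higher (12.5%) and 3 were lower (37.5%), by both tests. The zp3a.2 site was 27.2 points higher at 16 hpf than at 10 hpf (interval 6.18 to 39.5, adjusted p 0.0277, Fisher's exact test), a call that rests on 22 reads and is lost when both stages need 50 reads. The gnb2l1 site differed by -8.60 points (-9.28 to -7.93), gpx1a by -8.98 points (-14.7 to -3.36, adjusted p 0.00897, Fisher's exact test) and ODF3L2 by -19.7 points (-29.7 to -4.47, adjusted p 0.0277, Fisher's exact test). The ODF3L2 call rests on 38 reads at 16 hpf, 4 of them C. It is also lost with the limit of 50 reads, and with Bonferroni adjustment (adjusted p 0.105, Fisher's exact test). The 4 others were not called, with differences of 2.55 points in zdhhc16a (-4.88 to 9.75), 0.60 in zcchc17 (-7.31 to 10.3), 1.85 in zp2.2 (-3.60 to 9.93) and 3.68 at the mitochondrial site (-5.59 to 10.8). A p above the threshold does not show that these levels were equal.

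At 24 hpf 1 of 3 sites was lower than at 10 hpf (33.3%), namely gnb2l1 with -6.02 points. At 48 hpf 8 sites were tested, of which 1 was higher (12.5%) and 2 were lower (25%). The higher one was rps9 at 34146366, with 1.32 points (adjusted p 0.000128, Fisher's exact test), and the lower ones were gnb2l1, with -2.29 points, and eif3ea, with -2.62 points (adjusted p 0.000246, Fisher's exact test). None of these calls of 24 and 48 hpf against 10 hpf was made by the beta-binomial test (adjusted p of 0.0734 and 0.651). The usf2 site was not called, with -8.37 points and an interval of -15.6 to -0.62 (adjusted p 0.0853, Fisher's exact test).

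**Figure D4:**
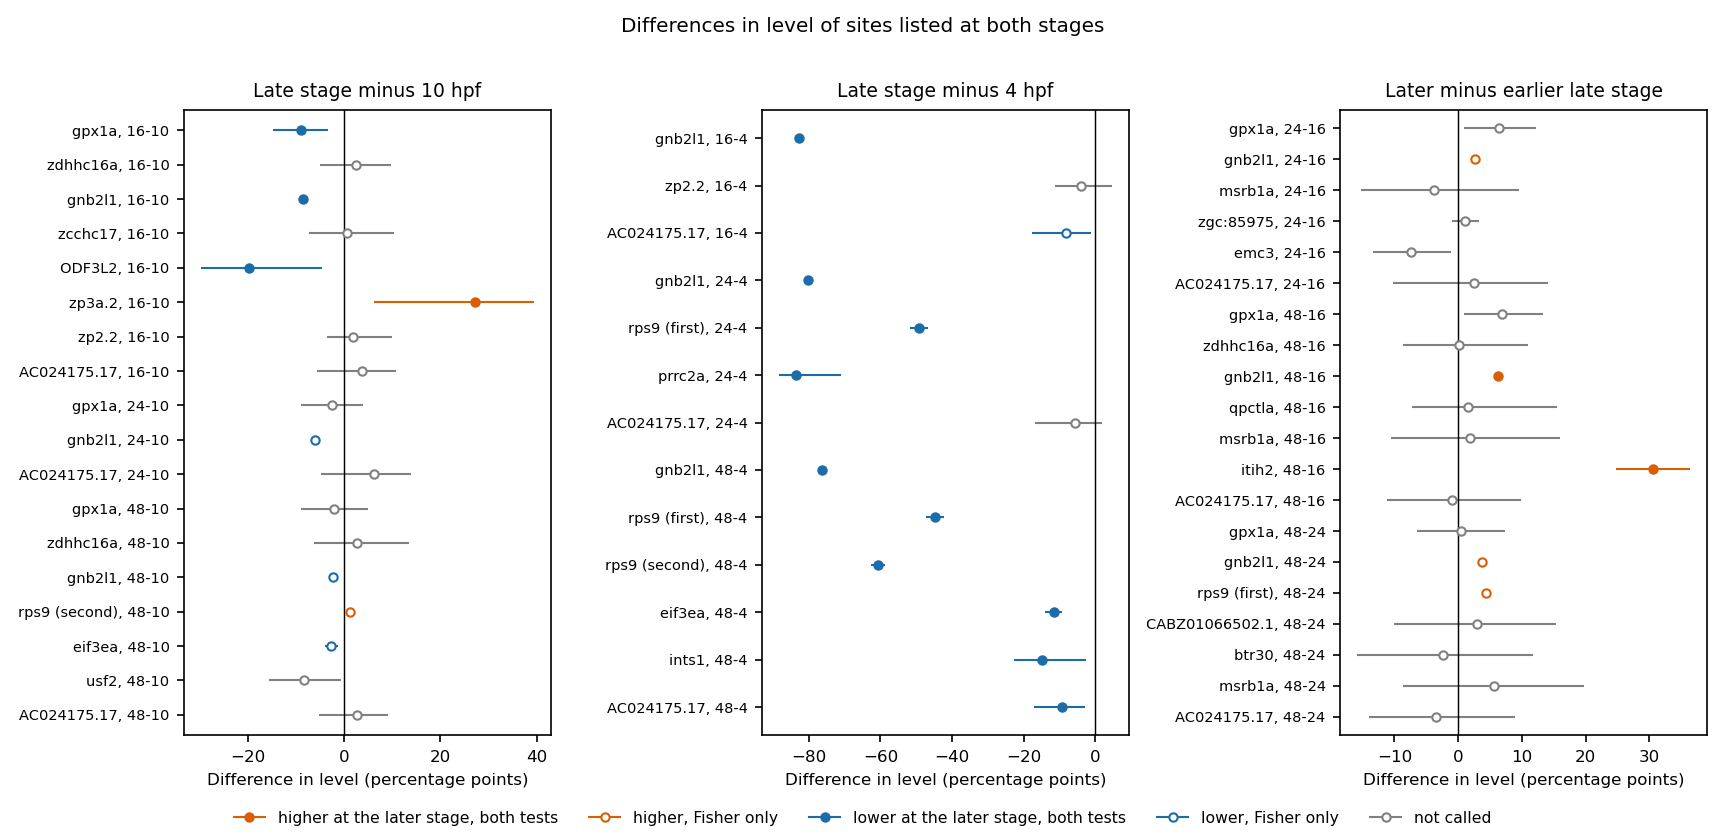
Difference in methylation level (percentage points, later minus earlier stage) of sites listed at both stages, with Newcombe 95% intervals, for late stages against 10 hpf, against 4 hpf and among themselves. Orange is higher and blue lower at the later stage by Fisher's exact test, grey is not called, and filled points were also called by the beta-binomial test. Differences from 4 hpf reach beyond -80 points, whereas itih2 at 48 against 16 hpf, at 30.6 points, is the largest among the late stages.

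Among the late stages themselves, every call was higher at the later stage, and gnb2l1 was called in each comparison. Only sites with at least 10% at both stages could be tested. At 16 hpf itih2 stood at 12.3% and gnb2l1 at 14.0%, and a fall below 10% could not have been called. The shared direction of these calls therefore partly follows from the minimum level. For 48 against 16 hpf 7 sites were tested and 2 were higher at 48 hpf (28.6%), and both passed the beta-binomial test. The itih2 site was 30.6 points higher at 48 hpf than at 16 hpf (24.9 to 36.4), with an adjusted p of 1.55e-27 in Fisher's exact test and of 1e-14 in the beta-binomial test. The gnb2l1 site was 6.31 points higher (5.78 to 6.84), with an adjusted beta-binomial p that rounds to the threshold of 0.05. At 48 hpf 2 of 7 sites were higher than at 24 hpf (28.6%), gnb2l1 by 3.73 points and rps9 at 34146365 by 4.43 points, and at 24 hpf 1 of 6 was higher than at 16 hpf (16.7%), gnb2l1 by 2.59 points. The beta-binomial test called none of the last 3.

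The other sites shared by late stages were not called. The gpx1a site differed by 6.48 points between 24 and 16 hpf (adjusted p 0.052, Fisher's exact test) and by 6.91 points between 48 and 16 hpf (adjusted p 0.0618, same exact test). The emc3 site differed by -7.37 points between 24 and 16 hpf (adjusted p 0.052, Fisher's exact test). When p-values were adjusted over all 9 comparisons, both gpx1a differences and that of emc3 passed the threshold, so that 3 sites were higher at 48 than at 16 hpf. For msrb1a, btr30, CABZ01066502.1, qpctla, zdhhc16a and the mitochondrial site the intervals of the differences between late stages span 0 and are more than 15 points wide, as the plot of differences shows. For the deeper site in zgc:85975 the difference between 24 and 16 hpf was 1.09 points, with an interval of -0.98 to 3.27.

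Late genes were finally counted in lists of genes by function, which were drawn up with earlier results of these data known and were not tested. Ribosomal protein genes made up 3 of the 42 late genes and held 4 of the 44 late sites (9.09%), against 20 of 5111 genes and 0.233% of the sites at 0 to 10 hpf. These 4 sites include the neighbouring pair of rps9, and the others stood on 54 reads (rplp0) and 41 reads (rpl35a). None of them was in the 16 hpf list. Selenoprotein genes held 3 late sites (6.82%), against 0.0998% of the early sites. The list of translation factor genes, in which the ribosomal scaffold gene gnb2l1 was also counted, held 2 late sites (4.55%). These were in gnb2l1 and eif3ea, against 0.499% of the early sites. Egg genes held 2 late sites (4.55%), both of 16 hpf, against 0.266% of the early ones. These early shares pool all lists of 0 to 10 hpf. Egg genes already held 16 of the 1252 sites of 8 hpf and 15 of the 428 sites of 10 hpf, so their share is not particular to the late lists. At 10 hpf the translation factor list, with gnb2l1 again counted, held 3 sites, selenoproteins 2 and ribosomal proteins 1. The skin and matrix list had 1 late site, in cyt1l (2.27%), against 0.333% of the early ones. The matrix gene efemp2a is not in this list, so its late site is not counted there. The lists of m5C pathway, globin, crystallin and contractile protein genes held 0 late sites, but they also held only 0.0776%, 0%, 0.0111% and 0.0554% of the early ones, so nothing is read from these zeros.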

How the data were processed

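Polyadenylated RNA of 9 stages, 2 libraries each, was converted with bisulfite and sequenced from stranded libraries. According to the study's methods and the submitters' processing notes, the authors used bcl2fastq 2.17, cutadapt and Trimmomatic, mapped reads with HISAT2 to the converted Zv9 genome and the rest with Bowtie2 to converted transcripts, and handled alignments with SAMtools. Reads with many unconverted cytosines, and genes in which conversion failed, were removed by the authors. Reads with several genomic matches could enter through the transcripts, so genes with close copies are less certain. Both replicates were combined before deposit. Coverage is a deposited count of C and T reads together (at least 20), and the level as a fraction (at least 0.1), given here in percent. Their product was whole at every site within 1e-06 and was taken as the C reads. The deposited p-value was not used.

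Levels, coverage and list membership were described with Wilson 95% intervals, which reflect the depth at each site, and differences with Newcombe intervals (Python 3.11.15, scipy 1.17.1). A logistic model across replicates needs counts per replicate, so Fisher's exact test was applied to pooled reads. The beta-binomial z test used a correlation of 0.00232, fitted to differences between the 2 and 4 hpf lists. Both tests were tried on reads simulated for the sites shared by the 4 and 6 hpf lists. That setting does not cover comparisons of 3 to 8 sites such as those made here. Alternatives were limits on coverage, C reads and level, other matching, other adjustments and leaving out mitochondrial sites. Late sites were named, except 2 that enter the counts and are not reported here, with fuller values for those in several late lists, those listed before, and new ones with at least 100 reads or 20%. The members and gene lists were chosen with earlier results of these data known. A table of current names held 34 of the 42 late gene IDs. Positions are those of Zv9 as deposited. Sequence context, motif type and genic location were not analysed here.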

Additional observations from a re-analysis of the deposited data

How the results depend on the processing

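The alternatives change which sites are tested or how p-values are made, and leave each difference as it is. At least 100 reads left 9, 6 and 14 sites at 16, 24 and 48 hpf, 21 distinct sites and 9 new ones, and at least 50 reads left 16 new ones. A level of at least 0.2 left 3, 3 and 8 sites, 10 distinct, of which 4 were listed before and 6 were new. Fewer sites meet these limits by construction. With the beta-binomial z test, 0 sites were lower at 24 than at 10 hpf, 0 were higher and 0 lower at 48 than at 10 hpf, 0 were higher at 24 than at 16 hpf and at 48 than at 24 hpf, and 1 was lower at 16 than at 4 hpf, since its variance is wider. For 16 against 10 hpf, 0 sites were higher and 2 were lower with Bonferroni adjustment or with at least 50 or 100 reads at both stages. For 24 against 16 hpf, 2 sites were higher and 1 was lower when adjusted over all 9 comparisons. The same counts were found with at least 50 or 100 reads at both stages, or with mitochondrial sites left out. The p-value of each site before adjustment is the same in these settings, so only the adjustment moved the calls. For 48 against 16 hpf, 3 sites were higher over all 9 comparisons or with these read limits. For 16 against 4 hpf, 1 site was lower with Bonferroni adjustment, with at least 100 reads at both stages or without mitochondrial sites. Among sites still tested in a setting, single site tests lost a call 12 times, 8 of them under the beta-binomial test and 4 under Bonferroni adjustment, and gained one 11 times. Called sites that a read limit removed, such as those of zp3a.2, ODF3L2 and prrc2a, are not in these counts. No paired analysis was possible because the lists combine both replicates of a stage, and for the same reason leaving out a replicate was not run. Sites with 20 to 50 reads have wide intervals, such as 4.63% to 22.6% for map2k6, so their levels can hardly be ranked.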
